A study of Mus musculus with 6 samples.

Results

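The cytosolic ribosomal protein genes of mouse bone marrow were chosen by name alone: every entry whose symbol begins with Rpl or Rps and goes on with a number and at most 1 further letter a, l or x, together with the P-stalk genes (Rplp), and without entries marked -ps as pseudogenes. The rule found 82 genes among 47561 entries. Of these, 78 passed the filter on low values (1 FPKM or more in 3 libraries or more) and were tested among 12302 genes. The 4 that did not pass were Rpl10l, Rpl39l, Rpl3l and Rpl32l.

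RNA was taken from the bone marrow of 3 control mouse samples and of 3 samples from mice given chronic unpredictable mild stress (CUMS) over 4 weeks. CUMS is a schedule of changing mild stressors used as a rodent model of depression. The controls were labelled as negative controls; strain, sex, age and genotype beyond "control" are not given in the sources used here, nor is whether each library came from 1 animal, so a p-value here reflects spread among these samples alone, which may be technical. The series title names vasopressin (AVP) and myelopoiesis, and the comparison asks what the marrow transcriptome does under the stress schedule.

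A ribosome is built from ribosomal RNA and one copy of nearly every ribosomal protein, so the cell makes these proteins in matched amounts; the small subunit decodes the messenger RNA and the large subunit joins the amino acids. The P-stalk, made of the proteins of Rplp0, Rplp1 and Rplp2, recruits elongation factors. Most ribosomal protein messages begin with a C followed by a run of pyrimidines, the terminal oligopyrimidine (TOP) start, through which mTORC1 and LARP1 control their translation. In marrow these genes are known for Diamond-Blackfan anaemia, a failure of red cell production caused by loss of 1 copy of one of several of them.

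TOP starts are shown first, because they are a sequence feature known for many of these genes. RefSeq promoters on GRCm38.p6 were matched for 60 of the 82 genes. A C followed by at least 4 pyrimidines lay within 10 bases of the annotated start, on the transcribed strand, in 39 of the 60 (65%), against 34.4% of 27025 genes with a promoter. Such a run lay exactly at the annotated start base in 14 (23.3%), against 3.01% of genes. The windows of 30 bases that follow run from 12 bases before the start to 18 bases from it, read 5′ to 3′ on the gene's strand, with capitals from the C of the run that lies nearest the start to the end of the run (in Rpl7a, Rps27, Rps6 and Rps26 a further pyrimidine or more precedes the capitals). They belong to Rpl7a (chr2:26910795-26910824, plus strand), Rpl36a (chrX:134585642-134585671, plus), Rps27 (chr3:90213631-90213660, minus), Rpl18 (chr7:45718059-45718088, plus), Rps6 (chr4:86857350-86857379, minus) and Rps26 (chr10:128626489-128626518, minus), genes chosen for a large change, a high level or a known link to mTORC1.
Rpl7a: ccctcttctttCTTTCTCCagcagccgagc
Rpl36a: cacccaggcaccgcctataaaCTTCCgttg
Rps27: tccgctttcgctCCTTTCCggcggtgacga
Rpl18: gtctcgcaggccgCTCTTTCCCCgcccact
Rps6: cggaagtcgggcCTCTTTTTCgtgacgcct
Rps26: gggcaagccgccggatCCTCTTTCgagtct

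Other short motifs were searched on both strands over the 250 bases before and 50 bases after each start. The ETS-type motif CCGGAAGT was found in 11 of 60 members (18.3%) and in 4.31% of genes, and the YY1-type motif AAGATGGC in 5 (8.33%) and in 3.19%. The SP1-type box GGGCGG was found in 35 (58.3%) and in 38.2% of genes, and TATAAA in 7 (11.7%) and in 15.7%. A match of letters is a description and shows no binding.

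Ribosomal protein genes also have many near-copies, and this bears on how a read is assigned. The files listed 219 pseudogene entries named after 57 of the members, 79 of them with a mean of at least 1 FPKM. The 75-base stretches of each member's coding sequence were sought in the GENCODE vM21 transcripts, on either strand (79 members with a coding model). A median of 83.2% of a member's stretches occurred word for word in a transcript of another gene. The reads were pairs of 151 bases, so these shares are not shares of reads that could be misassigned. At least 50% of the stretches were shared in 60 members, and none in 4, among them Rps3. The first 120 coding bases of Rps27 and of its paralog Rps27l, where bases that differ are in capitals, show a pair that differs throughout, while those of Rps27a begin a gene with an almost identical annotated copy.
Rps27: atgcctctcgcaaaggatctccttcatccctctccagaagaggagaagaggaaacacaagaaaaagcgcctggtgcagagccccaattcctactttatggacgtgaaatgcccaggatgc
Rps27l: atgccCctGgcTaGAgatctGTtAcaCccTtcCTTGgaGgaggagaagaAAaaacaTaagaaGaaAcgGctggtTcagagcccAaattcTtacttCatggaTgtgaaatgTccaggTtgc
Rps27a: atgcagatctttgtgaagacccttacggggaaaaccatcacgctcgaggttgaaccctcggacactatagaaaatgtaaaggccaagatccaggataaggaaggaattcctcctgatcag

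Rps27 and Rps27l differed at 61 of 255 coding bases (76.1% identity). The retrogene Rps27rt was 100% identical to Rps27 over all 255 bases, and Rps27a-ps2 differed from Rps27a at 1 of 467 aligned bases. Values of such members are uncertain to the extent that the authors' counting split or dropped shared reads, which is not stated. For some of them the values of their copies are given further below.

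The libraries summed to 561563 to 658595 FPKM and had 21334 to 23224 entries above 0. Replicate 1 of both groups carries a code 1 in its file header and the other 4 libraries a code 2, whose meaning is not stated. The levels of 3747 genes (30.5%) differed between the codes by limma (adjusted p under 0.05). Each code holds both groups, so group changes are also given within each code. Erythroid markers (7 genes, among them the globins Hbb-bs and Hba-a1) summed to 103713 to 122728 FPKM in control and 119755 to 148143 in CUMS. Neutrophil markers (7 genes, with S100a8 and S100a9 as most of the sum) summed to 45623 to 64165 and 48445 to 51089, with control replicate 1 the highest. In whole marrow, fewer cells of a type and less RNA per cell cannot be told apart.

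Ribosomal protein genes were among the most abundant messages of the marrow. The 82 genes together held 7.69%, 6.54% and 6.89% of the summed FPKM in control replicates 1, 2 and 3, and 7.16%, 7.32% and 7.20% in CUMS replicates 1, 2 and 3. The controls thus lay on both sides of the CUMS libraries, which sat close together. The means were 7.04% ± 0.588 and 7.23% ± 0.0847 (SD, n = 3 per group), a difference of 0.191 percentage points that is smaller than the pooled SD of 0.420. With the haemoglobin genes left out of the total, the shares were 9.92% ± 0.852 and 10.8% ± 0.258. That difference was larger than either SD, and control replicate 1 (10.9%) lay within the CUMS range of 10.5% to 11.1%.

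Levels per length differed between members. Of the 82 genes, 77 had a mean of at least 20 FPKM, from 40.0 (Rpl6l) to 1723 (Rplp1) with a median of 541, and 43 of them lay between 400 and 900 FPKM. The highest was 43.1 times the lowest, and every one of the 77 was at or above the 86.9th percentile of tested genes. The 6 that reached 1000 FPKM held 17.0% of the summed member FPKM. Their means were 1723 (Rplp1), 1488 (Rpl41), 1054 (Rps26), 1053 (Rps27), 1037 (Rplp0) and 1018 (Rps9). The neighbours from Rps26 to Rps9 in this order overlapped in their ranges over the 6 libraries.

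**Figure D1:**
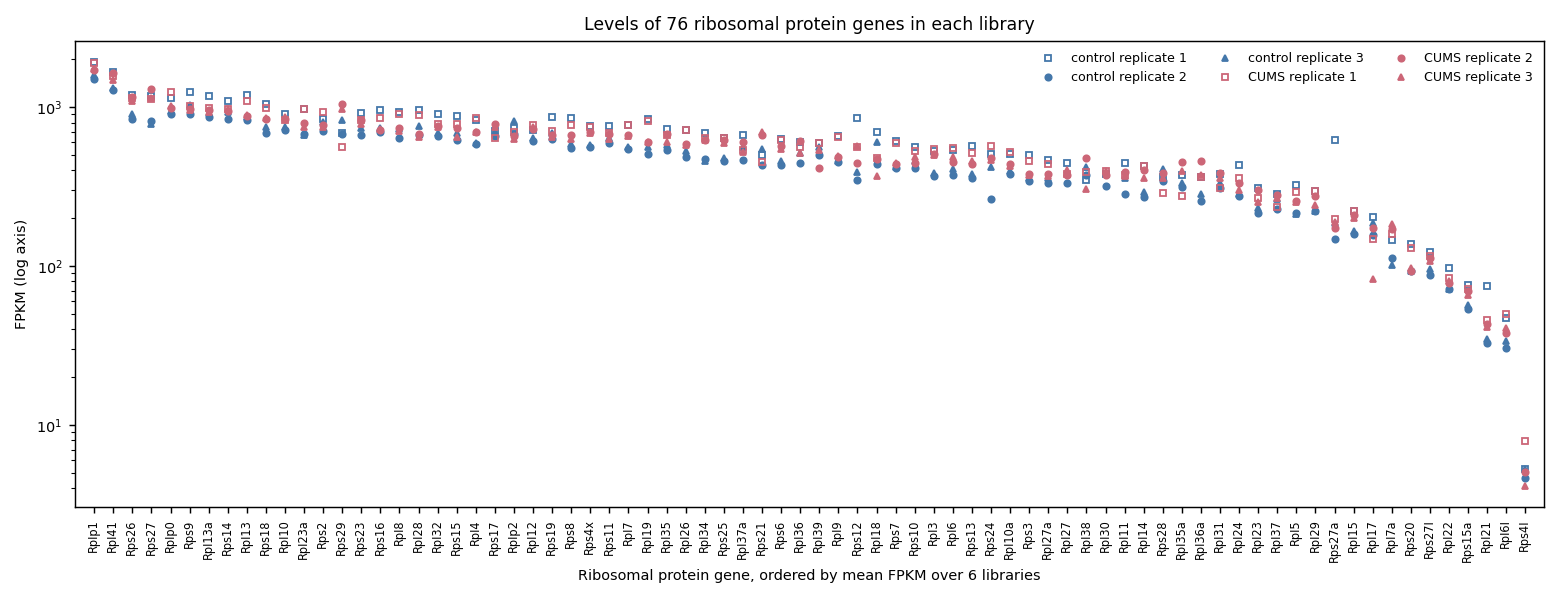
FPKM (log axis) of 76 of the 78 tested ribosomal protein genes in each of 6 libraries, ordered by mean; blue marks control and red CUMS, and open squares mark replicate 1 of each group. The means of all but Rps4l lie between 40.0 (Rpl6l) and 1723 (Rplp1), and control replicate 1 stands far above the other libraries in Rps27a (622 FPKM).

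At the low end, 9 of the 77 had means under 200 FPKM. Rpl21 (45.3), Rps15a (65.6) and Rpl6l (40.0, listed as a pseudogene by RefSeq) were the lowest, and Rps4l, a transcribed pseudogene by RefSeq, lay far below at 5.39. Rpl22, a large subunit protein for which loss is known to block T cell development, was also low, at 80.4 FPKM. For Rpl21, 92.9% of the 75-base coding stretches were shared with transcripts of other genes.

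Paralogs known from other tissues were at or near 0. Rpl10l, which replaces X-linked Rpl10 in male germ cells, was listed at 0 in all 6 libraries, while Rpl10 averaged 817 FPKM. Rpl3l, the skeletal and heart muscle form of Rpl3, averaged 0.401 FPKM against 472 for Rpl3. Rpl39l, a testis form of Rpl39, averaged 0.257 against 533. Rpl32l was also under the filter, at 0.572 FPKM. Coding identity within these pairs was 84.8% (Rpl10 and Rpl10l), 74.0% (Rpl3 and Rpl3l) and 85.3% (Rpl39 and Rpl39l). Rps27l, a paralog known to be induced by the tumour suppressor Trp53, was well expressed, with 122, 87.6 and 95.4 FPKM in control and 116, 113 and 107 in CUMS replicates 1 to 3. Its groups overlapped (log2 change 0.15, SE 0.131, adjusted p = 0.645 by limma), and its mean of 107 FPKM compares with 1053 for Rps27.

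Between CUMS and control, no ribosomal protein gene passed the test in the comparison of all 6 libraries. By limma with Benjamini-Hochberg adjustment, 132 of 12302 genes (1.07%) were called, 76 higher (0.618%) and 56 lower (0.455%) in CUMS, and 0 of the 78 members (0 also by limma without the trend). At an unadjusted p under 0.05 stood 2 members (2.56%), against 1898 genes (15.4%). The median log2 change (CUMS minus control, on log2(FPKM + 1)) of the members was 0.09, against -0.0017 over all tested genes, and 61 of 78 (78.2%) lay above 0 against 49.7% of genes. The medians were 0.08 for 31 small subunit genes, 0.11 for 44 large subunit genes and 0.10 for the 3 P-stalk genes. The CUMS and control libraries did not overlap in 2 members (2.56%), Rpl7a and Rpl12, both higher in CUMS, where 22.1% of all genes did not overlap (10% higher, 12.1% lower).

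Among small subunit genes, log2 changes ran from -0.47 to 0.39. Rps24, one of the Diamond-Blackfan genes, had the largest increase: 504, 264 and 421 FPKM in control and 571, 479.9 and 464 in CUMS replicates 1 to 3. Control replicate 2 stood low and control replicate 1 lay among the CUMS values (log2 change 0.39, SE 0.228, adjusted p = 0.467). Rps27 followed with 1172, 814 and 782 FPKM in control and 1119, 1292 and 1142 in CUMS (0.38, SE 0.174, adjusted p = 0.352), and Rps21 had a log2 change of 0.29 (adjusted p = 0.514). In Rps27 too, only control replicate 1 reached the CUMS values. The most negative small subunit values were those of Rps27a (-0.47, adjusted p = 0.702), whose product is fused to ubiquitin, and Rps28 (-0.12, adjusted p = 0.745).

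Other small subunit genes with known roles had smaller log2 changes. Rps6, the protein phosphorylated downstream of mTORC1, had 633, 432 and 460.5 FPKM in control and 624, 568 and 547 in CUMS (a log2 change of 0.21 with SE 0.159, adjusted p = 0.596). Rps19, the gene most often mutated in Diamond-Blackfan anaemia, had 862, 634 and 687 in control and 711, 670.2 and 645 in CUMS (-0.10, SE 0.138, adjusted p = 0.803). Rps14, deleted in a human myelodysplastic syndrome, had 1089, 846 and 931 in control and 978, 946 and 976 in CUMS (0.03, adjusted p = 0.951). In all 3 the groups overlapped, with control replicate 1 the highest library. Rps26 and Rps9, the small subunit genes among the 6 most abundant with Rps27, had log2 changes of 0.22 (adjusted p = 0.556) and -0.09 (adjusted p = 0.819).

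Among large subunit genes, log2 changes ran from -0.49 to 0.52, and Rpl7a had the largest of all members. Its levels were 145, 113 and 102 FPKM in control and 159, 169.8 and 184 in CUMS, so that every CUMS library lay above every control library. The log2 change was 0.52 (SE 0.142, 95% interval 0.19 to 0.85), with an unadjusted p of 0.0066 and an adjusted p of 0.141. Rpl7a hosts small nucleolar RNAs in its introns, and 89.4% of its coding 75-base stretches were shared with other transcripts. Rpl36a had 365, 257 and 285 FPKM in control and 362, 459.8 and 372 in CUMS (0.40, SE 0.159, adjusted p = 0.289), with control replicate 1 within the CUMS range.

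Rpl12, which sits at the base of the P-stalk, had 716, 608 and 636 FPKM in control and 776, 725 and 750.02 in CUMS. The groups did not overlap, by a small margin (log2 change 0.20, SE 0.109, adjusted p = 0.432). Rpl3, which lies by the peptidyl transferase centre, had a log2 change of 0.29 (adjusted p = 0.410). The decreases of largest size were in Rpl17 (-0.49, SE 0.255, adjusted p = 0.419) and Rpl18 (-0.39, SE 0.188, adjusted p = 0.380). Rpl18 had 694, 441 and 601 FPKM in control and 479, 468 and 367 in CUMS, so that control replicate 2 lay inside the CUMS range.

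Rpl5 and Rpl11, which bind Mdm2 when ribosome assembly fails and thereby stabilise Trp53, had groups that overlapped. Rpl5 had 323, 217 and 214 FPKM in control and 292, 258 and 254 in CUMS (a log2 change of 0.12 with SE 0.170, adjusted p = 0.803). Rpl11 had 445, 283 and 356 in control and 372, 392 and 369 in CUMS (0.09, SE 0.162, adjusted p = 0.858). Rpl13a, known for its release from the ribosome in interferon-treated myeloid cells, had a log2 change of -0.03 (adjusted p = 0.951). Rpl22 had 0.03 (adjusted p = 0.951), and Rpl38, known from a mouse skeletal patterning mutant, 0.01 (adjusted p = 0.983).

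None of the P-stalk genes was called. Rplp1 had 1925, 1496 and 1582 FPKM in control and 1888, 1721 and 1728 in CUMS (a log2 change of 0.10 with SE 0.139, adjusted p = 0.795). Rplp0 had 1133, 901 and 950.1 in control and 1241, 985 and 1013 in CUMS (0.12, SE 0.145, adjusted p = 0.767). Rplp2 had 743, 675 and 818 in control and 692, 659.9 and 627 in CUMS (-0.17, SE 0.115, adjusted p = 0.533). The value of Rplp2 was thus opposite in sign to those of its partners, and the groups overlapped in all 3 genes.

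**Figure D2:**
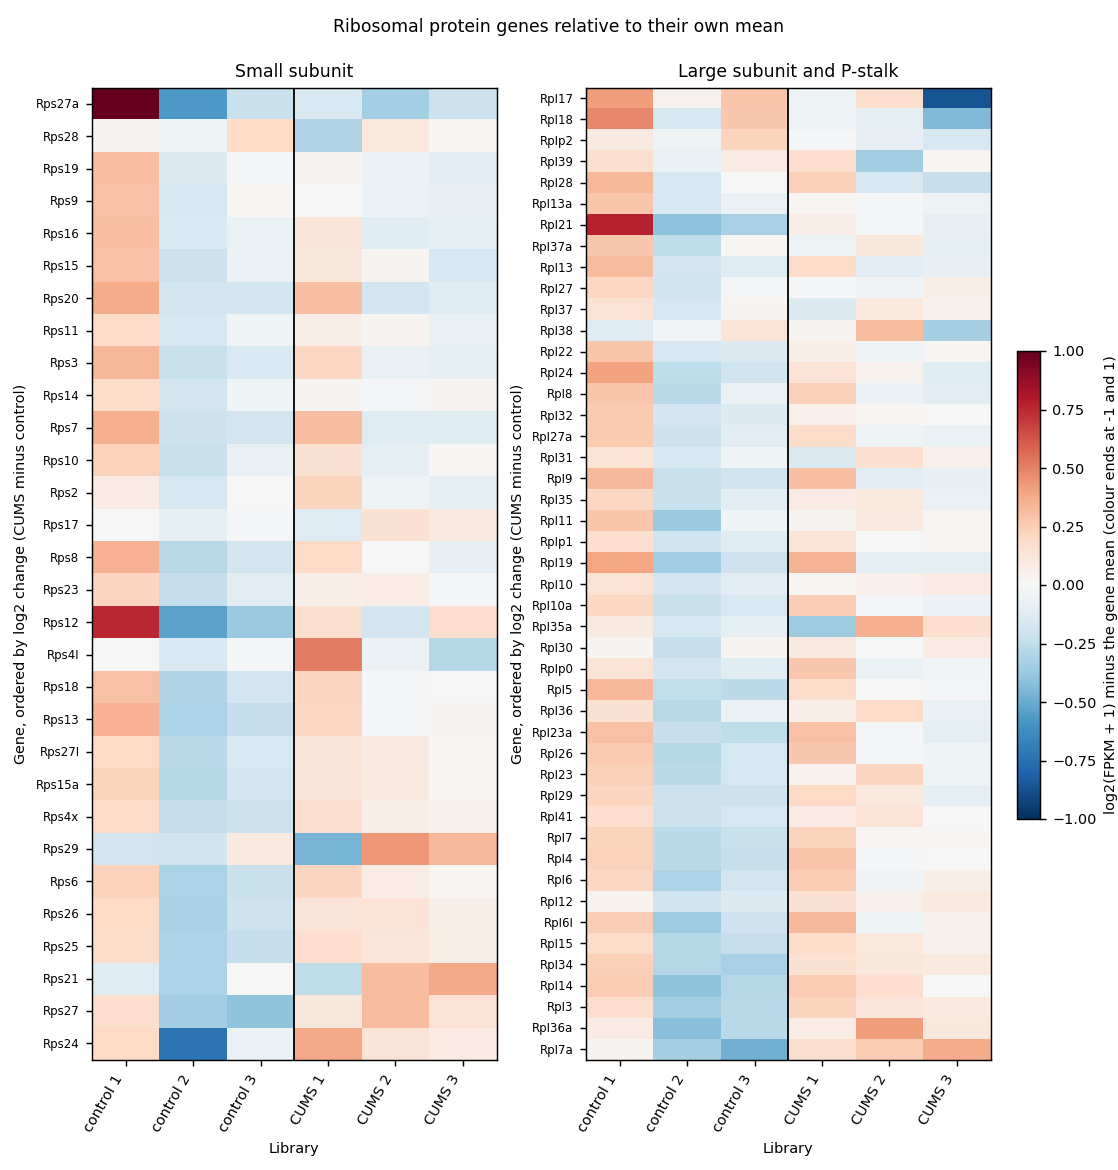
log2(FPKM + 1) minus the gene's mean over 6 libraries (red above, blue below, colour ends at -1 and 1) for 30 small subunit genes and 46 large subunit and P-stalk genes, ordered by log2 change, with the line between control and CUMS. Control replicate 1 is red and control replicate 2 blue in most genes, and Rps27a, Rpl21 and Rps12 stand out in control replicate 1.

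The libraries, more than the groups, ordered these genes. Control replicate 1 was the highest of the 6 libraries in 50 of 78 members (64.1%), against 26.5% of genes, and control replicate 2 the lowest in 59 (75.6%), against 18.2%. In 50 members (64.1%) both code 1 libraries lay above all 4 code 2 libraries, as in 18.1% of genes, and the reverse held in 0 members and 23.1% of genes. The difference between codes was called by limma in 39 members: 38 were lower in code 2 (48.7%, against 12.7% of genes), and Rps29 alone was higher. The median difference, code 2 minus code 1, was -0.28 on the log2 scale for members and -0.009 for all genes.

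Members with a short coding sequence were split in this respect. Rpl41, the shortest at 78 coding bases, was lower in code 2 (-0.19). In the 10 tested members with a coding length under 300 bases, the median difference between codes was -0.08, and 5 lay above 0. In the 66 longer ones the median was -0.30 and 3 lay above 0. Across these 76 members, which share their libraries, coding length and the code difference had a Pearson r of -0.359 and a Spearman rho of -0.496, given as a description. Rps29 (171 coding bases) had 685, 680.3 and 834 FPKM in control and 563, 1053 and 975 in CUMS, lowest in CUMS replicate 1. Whether library preparation, depth or cell makeup moves with the code was not tested, since the sources used here do not say what it means.

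Within the codes the direction differed. Between the code 1 libraries (CUMS replicate 1 against control replicate 1, 1 library each and no test) the median log2 change of members was -0.09, and 60 of 78 (76.9%) were lower in CUMS, against 53.5% of genes. Between the code 2 libraries (replicates 2 and 3) the median was 0.19, against 0.005 over all genes, and 68 of 78 lay above 0. Both CUMS libraries lay above both control libraries in 54 members (69.2%, against 31.7% of genes) and below them in 2.

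In those 4 code 2 libraries limma called 2178 of 12057 genes (18.1%), 1085 of them higher (9%), and 28 of the 78 members (35.9%), each higher in CUMS. They were 12 small subunit genes, 16 large subunit genes and no P-stalk gene. Rpl7a rose by 0.72 (SE 0.0714, adjusted p = 0.0018), Rpl36a by 0.61 (adjusted p = 0.0093) and Rps27 by 0.61 (adjusted p = 0.0032). Summed with their pseudogene entries, a step chosen after seeing the data, Rpl7a rose by 0.33 between these libraries and Rpl36a by 0.61. Rps21 (0.50, adjusted p = 0.0156), Rpl14 (0.43, adjusted p = 0.0098) and Rpl3 (0.42, adjusted p = 0.0044) also rose. The code 2 fit has 2 libraries a group, and control replicate 2 is one of them. Neutrophil marker sums were 45623 and 49169 FPKM in these controls and 50064 and 48445 in these CUMS libraries; the erythroid sums were 103713 and 109596 against 123067 and 119755. The part of either cell type in the result was not tested.

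With the code as a term over all 6 libraries, 1645 genes (13.4%) were called and 1 member, Rpl7a (adjusted p = 0.0263), where 6.06% of all genes were called higher and 7.31% lower. In that fit 16 members (20.5%) stood at an unadjusted p under 0.05, against 31.3% of genes. With the replicate number as a block, 959 genes (7.8%) and 0 members were called, with 12 members (15.4%) at an unadjusted p under 0.05 against 28.7% of genes. Under quantile normalization 1.62% of genes were called and, of the members, Rplp1, with 18 members (23.1%) at an unadjusted p under 0.05 against 17.4% of genes. Without control replicate 1, limma called 255 genes (2.09%, with 1.3% higher) and 4 members, Rpl7a, Rpl3, Rpl34 and Rps27, all higher in CUMS, and the median of the members was 0.22. Without control replicate 2 that median was -0.0012, and no member was called. The members' median thus ranged from about 0 to 0.22 with the control library left out.

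A test of whether the group change differs between codes (a group by code interaction in limma) called 8 of 12302 genes (0.065%), and Rpl21 and Rps27a were among them. In Rpl21 the change was -0.70 between the code 1 libraries and 0.32 between the code 2 libraries, a difference of 1.02 (SE 0.112, adjusted p = 0.0422). Its levels were 75.01, 32.6 and 34.5 FPKM in control and 45.7, 42.9 and 41.1 in CUMS. Its annotated copy Rpl21-ps15 stood higher than Rpl21 in every library, at 155, 119 and 127 FPKM in control and 172, 194 and 159 in CUMS. With each member summed with its pseudogene entries, the change of Rpl21 was -0.08 between the code 1 and 0.47 between the code 2 libraries, and its interaction of 0.55 (SE 0.141, adjusted p = 0.232) was no longer called. That fit called 0 members and 1 of 12223 genes (0.00818%). In the fit without summing, at an unadjusted p under 0.05 stood 44 of 78 members (56.4%), against 12.7% of genes, and the median of the interaction was 0.31 in members and 0.02 in all genes. With summing, that median was still 0.31 in members and 0.02 in all genes. The code 1 arm holds 1 library a group, whose spread is assumed to be that of the others.

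**Figure D3:**
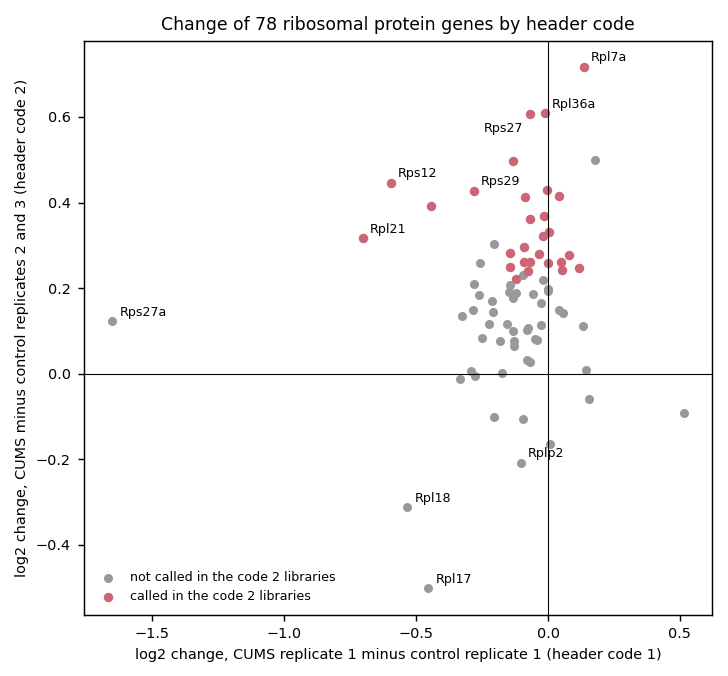
log2 change (CUMS minus control, log2(FPKM + 1)) of 78 ribosomal protein genes between the 2 code 1 libraries (x axis) and between the 4 code 2 libraries (y axis); red points were called in the latter. Most points lie left of 0 on the x axis (60 of 78) and above 0 on the y axis (68 of 78), with Rps27a and Rpl21 far to the left.

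Rps27a was the member that departed most in any library from its usual place among the members, and its annotated copy moved against it. Rps27a had 622 FPKM in control replicate 1 and 147, 187, 197, 173 and 189 in control replicates 2 and 3 and CUMS replicates 1 to 3. Rps27a-ps2 (chr9:83409622-83410164, GRCm38.p6) had 45.1 in control replicate 1 and 209, 207, 246, 222 and 201 in the other libraries in the same order. The sum of both was 667 in control replicate 1 and 356 to 443 elsewhere. To measure this, the median of all members was subtracted in each library, and then the gene's own median over the 6 libraries. On that scale Rps27a stood 1.47 log2 units high in control replicate 1. Its level there was near the member median of that library (638 FPKM). Its group by code interaction was 1.77 (SE 0.187, adjusted p = 0.0422), and 0.65 (SE 0.109, adjusted p = 0.166) when summed with its pseudogene entries, where it was no longer called; its log2 change was 0.12 (adjusted p = 0.456) between the code 2 libraries.

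By the same measure Rpl17 stood 1.02 log2 units low in CUMS replicate 3. It had 83.3 FPKM there, against 203, 156, 185, 148 and 172 in control replicates 1 to 3 and CUMS replicates 1 and 2. Its copy Rpl17-ps10 was highest in that library, at 359.8 FPKM, against 239, 199.6 and 169 in control and 352 and 258 in the other CUMS libraries. Summed with its 2 annotated copies of highest level, Rpl17 had 750.3, 521 and 531 FPKM in control and 788, 637 and 645 in CUMS. With each member summed with all its pseudogene entries, 1.1% of genes and 0 members were called, and the log2 change of Rpl17 was 0.22 (adjusted p = 0.619), opposite in sign to its value alone.

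Rps12 had 851 FPKM in control replicate 1 against 348 to 571 elsewhere. Rps12-ps3 was highest in CUMS replicate 1 (645) and had 527 in control replicate 1. The sum of Rps12, Rps12-ps3 and Rps12-ps4 was still highest in control replicate 1, at 1450 FPKM, with 1281 in CUMS replicate 1. Rpl7a-ps11, the most abundant Rpl7a copy, had 176, 125 and 147 FPKM in control and 173, 159.6 and 135 in CUMS, and Rpl7a-ps5 had 30.6, 26.0 and 26.0 in control and 16.7, 10.3 and 19.8 in CUMS. The sum of Rpl7a with both was 352, 264 and 274 in control and 349, 339.6 and 339 in CUMS, so that control replicate 1 rose above the CUMS libraries in the sum. Summed with all its pseudogene entries, Rpl7a changed by -0.00056 between the code 1 libraries and by 0.33 between the code 2 libraries. Alone it had 0.14 and 0.72. Rps27rt had 105, 116 and 285 FPKM in control and 93.8, 223 and 302 in CUMS. The sum of Rps27 and Rps27rt was 1277, 930 and 1067 in control and 1213, 1515 and 1444 in CUMS, so that control replicate 1 lay within the CUMS range. The fit with summed pseudogene entries leaves Rps27rt out, since its name is not marked -ps. All pseudogene entries together held 6.98% ± 0.259 of the FPKM of members and pseudogenes in control and 7.33% ± 0.405 in CUMS (SD, n = 3). How reads were split between a member and its copies was not tested, since the files hold no reads.

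**Figure D4:**
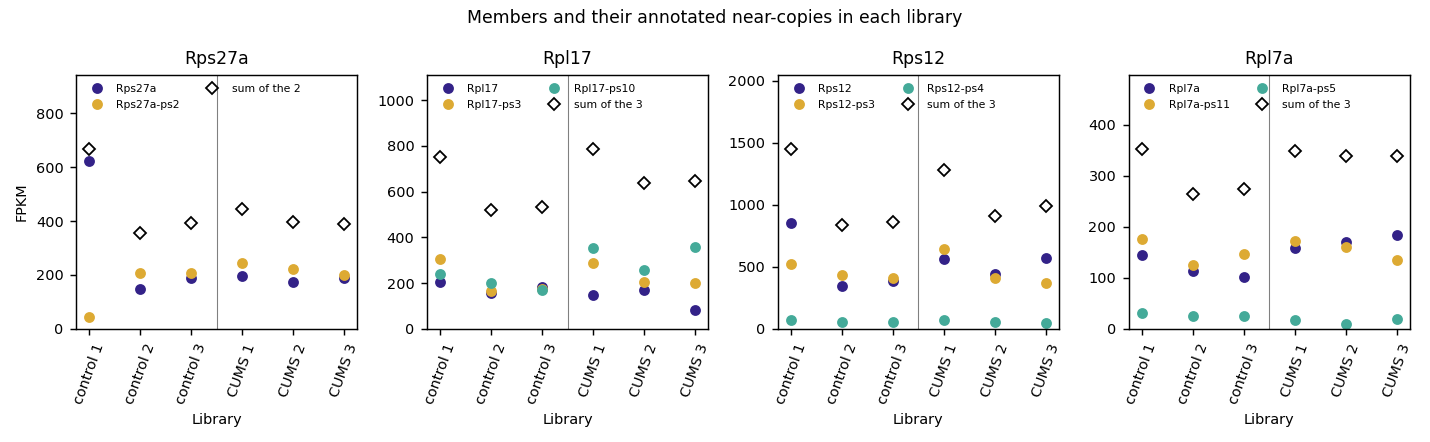
FPKM of Rps27a, Rpl17, Rps12 and Rpl7a, of their most abundant annotated copies and of the sum (open diamonds) in each of 6 libraries. In control replicate 1, Rps27a is high (622) where Rps27a-ps2 is low (45.1), and in CUMS replicate 3 Rpl17 is low (83.3) where Rpl17-ps10 is high (359.8).

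The 9 ribosomal protein genes listed whose names fall outside the rule had a median log2 change of 0.07, with 7 of 9 above 0, and no call by limma in the 6 libraries (0 at an unadjusted p under 0.05). Rpsa had a log2 change of 0.12 (adjusted p = 0.709) and Rps3a1 of 0.14 (adjusted p = 0.714). Fau, which encodes a small subunit protein fused to a ubiquitin-like domain, had 1209, 877 and 936 FPKM in control and 944, 781 and 787 in CUMS, so that CUMS replicate 1 lay within the control range. Its log2 change was -0.26 (SE 0.156, adjusted p = 0.488), and it was called lower with the code as a term (adjusted p = 0.0374). The 9 members listed here for Diamond-Blackfan anaemia had a median log2 change of 0.09 with 8 of 9 above 0, and none was called. These counts hold for the listed genes alone. In the code 2 libraries 3 of the 9 were called higher: Rps26 (0.36), Rpl35a (0.39) and Rpl5 (0.25). There 35.9% of all 78 members and 9% of all genes were called higher.

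Ribosome biogenesis genes, which make and process ribosomal RNA and assemble the subunits, had mostly positive log2 changes within both codes, and none passed the test in the comparison of all 6 libraries. Of 39 genes, 37 had a log2 change above 0 (median 0.23), and 15 had an unadjusted p under 0.05 (38.5%, against 15.4% of genes). All 3 CUMS libraries lay above all 3 controls in 18 (46.2%), against 10% of genes. The summed level was 594 to 670 FPKM in control and 718 to 770 in CUMS. The change was above 0 in 34 of 39 between the code 1 libraries (median 0.24) and in 35 of 39 between the code 2 libraries (median 0.27). With the code as a term, 15 were called, all higher, against 6.06% of genes; with the replicate number as a block, 8 were called, all higher, against 3.49%.

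Nucleolin (Ncl), the abundant nucleolar protein that binds nascent ribosomal RNA and whose message is itself part of the growth response, had the smallest p of the list. It had 40.7, 32.5 and 34.8 FPKM in control and 53.2, 58.2 and 53.3 in CUMS. The groups were well apart (log2 change 0.60, SE 0.107, adjusted p = 0.0525; with the replicate block adjusted p = 0.0175). Nop58, a core protein of the box C/D nucleolar particles, went from 27.7, 23.6 and 23.4 to 37.4, 36.2 and 33.2 FPKM (0.50, SE 0.103, adjusted p = 0.0725; with the block 0.0136). Wdr43 and Mybbp1a, which act in ribosomal RNA transcription and processing, had log2 changes of 0.46 (adjusted p = 0.0747; with the block 0.0226) and 0.41 (adjusted p = 0.0784; with the block 0.0247), and their groups did not overlap.

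**Figure D5:**
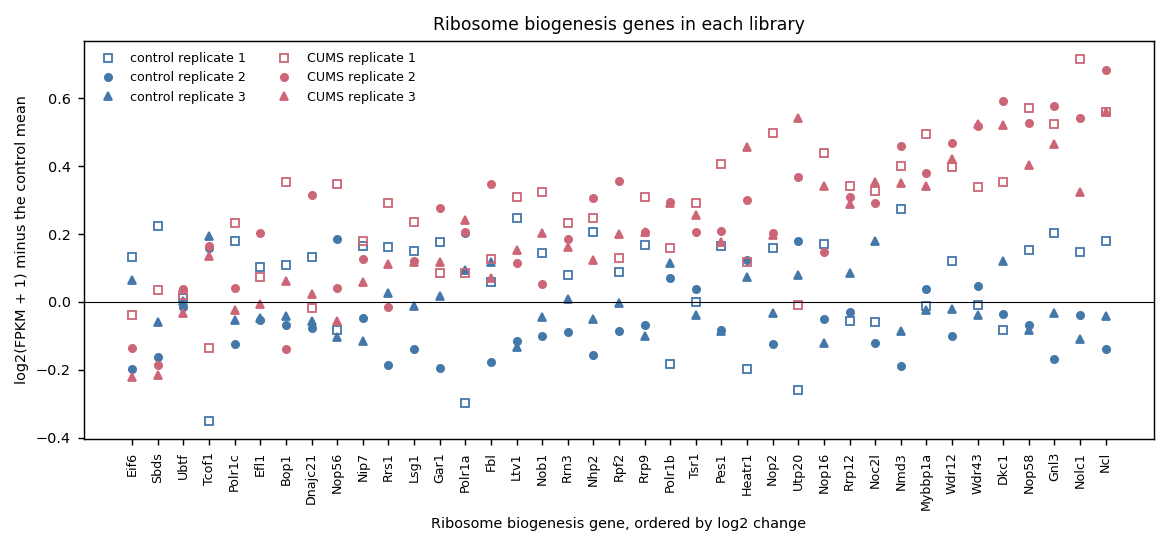
log2(FPKM + 1) minus the control mean for 39 ribosome biogenesis genes in each of 6 libraries (blue control, red CUMS, open squares replicate 1), ordered by log2 change. In 18 genes, among them Ncl, Nop58, Wdr43 and Mybbp1a, all 3 CUMS libraries lie above all 3 controls; none passed an adjusted p under 0.05 in the comparison of all 6 libraries.

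Other genes known for TOP messages, 20 translation and RNA-binding factors, had a median log2 change of 0.17, with 17 of 20 above 0. At an unadjusted p under 0.05 stood 4 (20%), against 15.4% of genes. Eif3a, the largest subunit of the eIF3 initiation complex, had 37.4, 37.4 and 39.3 FPKM in control and 41.6, 56.3 and 52.3 in CUMS (0.38, SE 0.122, adjusted p = 0.204). Npm1, a nucleolar chaperone of ribosome export, had 139, 121 and 154 in control and 152, 225 and 209.7 in CUMS (0.49, SE 0.165, adjusted p = 0.218). Hnrnpa1 (0.34, adjusted p = 0.226) and Eif4b (0.23, adjusted p = 0.306) followed. With the code as a term 3 of the 20, Eif3a, Npm1 and Eif4b, were called, all higher, where 6.06% of all genes were called higher. In the code 2 libraries 9 of the 20 were called higher and 1 lower, against 1085 and 1093 of 12057 genes. The lower one was Pabpc1 (-0.32, adjusted p = 0.0094). It had 363, 447 and 442 FPKM in control and 342, 361 and 351 in CUMS, without overlap (-0.24 over all 6 libraries, adjusted p = 0.366).

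Of 14 genes of the mTORC1, S6 kinase and LARP1 pathway, none was called in the 6 libraries, and the median log2 change was -0.05. At an unadjusted p under 0.05 stood 1 (7.14%), against 15.4% of genes. Eif4e, the cap-binding factor that mTORC1 releases from its repressors, had 14.2, 11.2 and 11.5 FPKM in control and 30.1, 25.5 and 15.5 in CUMS, with no overlap (0.85, SE 0.226, adjusted p = 0.135; with the block 0.0208). Its repressor Eif4ebp1 had 56.9, 43.2 and 47.0 in control and 46.9, 34.9 and 35.9 in CUMS, with overlap (-0.32, SE 0.149, adjusted p = 0.363; with the block 0.0378).

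Of 9 genes of ribosome rescue and quality control, none was called, and the median log2 change was 0.03 with 6 above 0. At an unadjusted p under 0.05 stood 3 (33.3%), against 15.4% of genes. Between the code 2 libraries the median was -0.09, with 4 of 9 above 0. With the code as a term 3 were called higher and 1 lower, Edf1 (-0.29, adjusted p = 0.0444), against 6.06% and 7.31% of genes. Abce1, which splits ribosomes after termination, had 18.8, 19.7 and 17.3 FPKM in control and 24.9, 26.3 and 26.9 in CUMS, with no overlap (0.46, SE 0.0916, adjusted p = 0.0679; with the block 0.0221). In the nucleolar stress and Myc list (8 genes, 7 tested) none was called; Myc, a transcriptional driver of ribosome production, had 11.9, 13.8 and 15.3 in control and 15.6, 16.8 and 18.8 in CUMS, without overlap (0.31, SE 0.120, adjusted p = 0.286). The median of that list was -0.04.

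Mitochondrial ribosomal proteins, a separate set of 78 tested genes, had a median log2 change of 0.03, 49 of 78 above 0 and no call. At an unadjusted p under 0.05 stood 5 (6.41%), against 15.4% of genes. Mrpl32 had 0.40 (adjusted p = 0.145; with the block 0.0287) and Mrpl4 -0.37 (adjusted p = 0.192). Their code difference had a median of -0.28, and 76 of 78 were lower in code 2, as 70 of the 78 cytosolic members were. Among marker lists, erythroid genes had a median log2 change of 0.19, with 7 of 7 above 0. Neutrophil genes had a median of -0.07, with 2 of 7 above 0. B cell genes had -0.25, monocyte genes -0.36, T and NK genes 0.14, progenitor genes 0.11 and osteolineage genes 0.36. Only the monocyte list held calls in the 6 libraries, Csf1r and Cx3cr1, both lower. With the replicate block Ccr2 of that list and Cd79a of the B cell list were among those also called lower, and Col1a1 and Cxcl12 of the osteolineage list higher. The part of these cell types in the ribosomal protein and biogenesis values was not tested.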

How the data were processed

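The authors deposited 1 value per gene and library, read as FPKM (fragments scaled by transcript length and library size) from the values; no label or header names the unit. Per the submitters' processing notes the tools were DESeq2 2.11.40.6, featureCounts 1.6.4, HISAT2 2.1, bcl2fastq 2.19 and cutadapt 1.16.5, and the build mm10; which of them made these values, the use of strand and the handling of multi-mapped reads are not given in the sources used here. Per the labels' protocols, TRIzol RNA (1 µg) went into a TruSeq library and paired reads of 151 bases. Counts are not in the files used, so depth is unknown and no counting interval is given.

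Genes with at least 1 FPKM in 3 of 6 libraries were tested on log2(FPKM + 1) by limma 3.58.1 with a trend (R 4.3.3), group as the only term, Benjamini-Hochberg adjustment over all 12302 genes and a threshold of 0.05; every adjusted p in the text is from limma. An exact permutation test of 3 against 3 libraries cannot go below 0.1. The fit was tested on simulated data. Python 3.11.15, pandas 2.3.3 and matplotlib 3.10.9 made tables and plots. Alternatives were other scalings, filters and pseudocounts, the header code or replicate number as a term, the code 2 libraries alone, each library left out, and, chosen after seeing the data, members summed with their pseudogenes.

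Replicate numbers come from the sample titles. Libraries with equal numbers deviated from their groups' means with correlations of 0.689, 0.452 and 0.363, and numbers 2 and 3 crossed gave 0.459 and 0.362, so the pairing is not separable from the header code. The replicate block is given where it changed a call.

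Members and the 15 gene lists (marker lists included) were chosen with earlier results of these data known. Named are: every called member; the 6 highest and 4 lowest tested; the 6 largest changes each way; the P-stalk, Rpl5, Rpl11, Rps6, Rps19, Rps27a, Rpl13a, Rpl22, Rpl38, Rps14; paralogs with their partners; members under the filter; and up to 4 smallest p in each other list. Some items under this rule are not reported here. Rpl12, Rps12, Rps29 and Pabpc1 were named after their values were seen.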

Additional observations from a re-analysis of the deposited data

Results flagged for a closer look

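Of 78 ribosomal protein genes, 2 had a group change that differed between the header codes by limma's interaction test. In Rps27a the change between the 4 code 2 libraries exceeded that between the 2 code 1 libraries by 1.77 on the log2 scale. In Rpl21 it did so by 1.02. Both had an adjusted p of 0.0422, both have control replicate 1 as their highest library, and the code 1 arm holds 1 library a group. With each member summed with its pseudogene entries, a fit chosen after seeing the data, the values were 0.65 (adjusted p = 0.166) for Rps27a and 0.55 (adjusted p = 0.232) for Rpl21, and neither was called.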

How the results depend on the processing

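The 6-library comparison called 0 members and 132 genes. Members called were 1 with the header code as a term, 28 in the code 2 libraries, 1 (Rplp1) under quantile normalization, 0 to 4 leaving out 1 library, and 0 otherwise. Genes called were 959 with the replicate block, 1645 with the code term, 2178 in the code 2 libraries, 199 under quantile normalization, 36 without a filter and 12 to 255 leaving out 1 library. Genes called in the other translation lists, 0 at first, were 13 with the block, 32 with the code term, 43 in the code 2 libraries, 2 scaled to the same sum, 2 under quantile normalization, 3 scaled without haemoglobin genes, 1 with a minimum of 5 FPKM and 0 to 4 leaving out 1 library. The members' median was 0.05 scaled to the same sum, 0.14 scaled without haemoglobin genes and -0.0012 to 0.22 leaving out 1 library; the share difference became 0.865 points without haemoglobin genes and -0.058 to 0.515 leaving out 1 library. The block changed no other call of a named gene than those given.

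Some log2 changes of named genes, none of them called in the 6 libraries, changed sign; the cause was not tested. In the code 2 libraries these were Rps27a 0.12, Rps9 0.0070, Rps4l -0.091, Rpl21 0.32, Rpl13a 0.083 and Rpl38 -0.059. Scaled to the same sum they were Rps14 -0.015, Rpl22 -0.013 and Rpl38 -0.028, under quantile normalization Rps14 -0.022 and Rpl21 0.0087, and scaled without haemoglobin genes Rpl21 0.018 and Rpl13a 0.013. Summed with pseudogenes, Rpl17 had 0.22 and Rpl21 0.28, and the interactions of Rps27a (0.65) and Rpl21 (0.55) with the header code lost their calls. Leaving out 1 library gave ranges of -0.87 to 0.16 (Rps27a), -0.20 to 0.0021 (Rps28), -0.20 to 0.031 (Rps9), -0.058 to 0.12 (Rps14), -0.12 to 0.28 (Rps4l), -0.23 to 0.36 (Rpl21), -0.076 to 0.25 (Rpl11), -0.19 to 0.032 (Rps19), -0.12 to 0.10 (Rpl13a), -0.050 to 0.17 (Rpl22), -0.14 to 0.18 (Rpl38), -0.22 to 0.040 (Rpl39) and -0.14 to 0.50 (Rps12). Depth is not given by the files, so counting error was not measured.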
